A study of Mus musculus with 12 samples.

Results

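The NRF2 pathway was followed in mouse liver through 10 genes: Nfe2l2 and Keap1, which encode the transcription factor NRF2 and its inhibitor, and the target genes Srxn1, Cbr3, Nqo1, Gclc, Gclm, Hmox1, Txnrd1 and Prdx1. Every probe that carries the name of one of these genes in the scanner files was taken, which gave 15 probes for 10 of the 27962 gene and transcript names on the array. Nfe2l2 had 4 probes, Srxn1 had 3 and the other genes had 1 each. Liver total RNA came from male C57BL/6 mice that were either SIRT1+/+ (WT) or SIRT1+/- (Het) and had been fed for 34 weeks, low-fat in 2 groups and high-fat in the other 2. Each of the 4 groups (WT low-fat, WT high-fat, Het low-fat and Het high-fat) held 3 biological replicates, measured on 1-colour Agilent arrays with 60-base probes, 1 array per replicate. The series title names the part of SIRT1, an NAD-dependent protein deacetylase, in metabolic disease brought on by diet as its subject. Neither the change made in the Het allele nor the age of the mice is stated by the labels.

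In unstressed cells KEAP1 holds NRF2 in the cytoplasm and passes it to a cullin 3 ubiquitin ligase for destruction. Oxidants and electrophiles modify cysteines of KEAP1, NRF2 then accumulates, pairs with a small MAF protein and binds antioxidant response elements near genes for glutathione synthesis, thioredoxin and peroxiredoxin recycling, quinone and carbonyl reduction and haem breakdown. Because this control acts on the stability of the NRF2 protein, the mRNA of Nfe2l2 need not follow the activity of the pathway. In liver the pathway is known for its part in the handling of reactive drugs and lipid peroxides.

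The upstream sequences of the 3 genes that rose most are shown because their probes moved together between the diets. RefSeq windows of mouse build GRCm38.p6, from 250 bases before to 50 bases after an annotated start, were at hand for 8 of the 10 genes, as 10 windows. Hmox1 and Gclc had no entry. The 250 bases upstream of Srxn1 (chr2:152105274-152105523, plus strand), Cbr3 (chr16:93682969-93683218, plus strand) and Nqo1 (chr8:107403206-107403455, minus strand) read as follows, 5′ to 3′, with matches to the searched motifs in capitals.
Srxn1: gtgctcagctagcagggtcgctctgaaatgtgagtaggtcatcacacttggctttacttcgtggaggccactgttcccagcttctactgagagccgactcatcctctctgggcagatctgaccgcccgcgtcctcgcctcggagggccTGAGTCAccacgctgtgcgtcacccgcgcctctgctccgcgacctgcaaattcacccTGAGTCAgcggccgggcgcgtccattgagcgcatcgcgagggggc
Cbr3: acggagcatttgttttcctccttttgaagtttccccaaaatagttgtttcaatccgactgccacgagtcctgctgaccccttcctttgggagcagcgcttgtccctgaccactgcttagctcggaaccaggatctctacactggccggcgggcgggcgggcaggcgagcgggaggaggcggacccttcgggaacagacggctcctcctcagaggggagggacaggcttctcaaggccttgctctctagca
Nqo1: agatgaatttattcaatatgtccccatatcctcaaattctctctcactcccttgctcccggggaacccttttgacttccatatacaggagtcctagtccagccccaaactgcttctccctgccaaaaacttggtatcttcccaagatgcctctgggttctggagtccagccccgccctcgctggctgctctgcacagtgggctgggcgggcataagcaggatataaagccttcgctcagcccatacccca
The motifs searched were the core of the antioxidant response element, TGACNNNGC, read as GCNNNGTCA on the other strand, and the AP-1 site TGAGTCA, read as TGACTCA on the other strand; the 2 motifs can share bases. Srxn1 held 2 AP-1 sites, 102 and 45 bases upstream of the start, and a match to the searched element core 28 bases downstream of it. The site 45 bases upstream runs on as TGAGTCAgc. A core written with TGAG in place of TGAC was not searched, so such a form is not marked in any window. The windows of Cbr3, Nqo1 and Keap1 held neither motif, which says only that these letters are not in these windows. Single matches in the other genes lay in the following stretches, printed with 6 flanking bases on either side of each match and with the match in capitals.
Srxn1, element core downstream of the start: tgggcaGCTAGGTCAgagtga
Prdx1, element core 133 bases upstream, sharing bases with an AP-1 site: gaaagcGCTGAGTCAtccccc
Prdx1, AP-1 site 237 bases upstream: aggaaaTGACTCAaagggc
Gclm, element core 134 bases upstream: ccgggcGCACCGTCAactctc
Txnrd1, the second of 3 windows, element core 92 bases upstream: atttttGCTTTGTCAttctga
Nfe2l2, element core 240 bases upstream: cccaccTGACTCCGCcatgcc
The element core was present in 5 of the 10 windows of these genes, against 12.4% of the 32851 windows of the whole table. The AP-1 site was present in 2 of 10, against 5.2%. These matches are descriptions of sequence, and binding was not measured.

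Levels are given as the log2 of a probe's processed intensity minus the log2 of the 75th percentile of its array, so that 0 is the brightness of that percentile and 1 unit is a doubling. A level can be compared between arrays for the same probe, not between probes. A difference was called where the adjusted p of limma, with the Benjamini-Hochberg method over the 25291 probes that passed the filter on dim signals, was under 0.05. All 15 probes passed that filter without depending on a single group, and 14 of them were well above background on all 12 arrays. The exception was the third Srxn1 probe, which was marked as an outlier on WT high-fat array 3 and has no value there. Per the file headers the probes lie, on mouse build mm7, at chr2:75519430-75519489, chr2:75519576-75519635, chr2:75535606-75535665 and chr2:75544410-75544469 for Nfe2l2 and at chr9:21107406-21107846 for Keap1. Those of Srxn1 lie at chr2:151852040-151852099, chr2:151850353-151850412 and chr2:151850306-151850365, the last 2 overlapping, and those of Cbr3 and Nqo1 at chr16:93751054-93751113 and chr8:105988683-105988742. Gclc was read at chr9:77835053-77835112, Gclm at chr3:122027477-122030112, Hmox1 at chr8:73642229-73642288, Txnrd1 at chr10:82438991-82439050 and Prdx1 at chr4:116069412-116070182. The stretches for Keap1, Gclm and Prdx1 are longer than the 60 bases of the probe, so these probes join separate stretches of the genome. Which exon or untranslated region each probe reads was not analysed here.

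The arrays had between 58.0% and 71.6% of their spots well above background. Sirt1 was lower in Het livers on both of its probes, by a log2 difference of -0.44 ± 0.09 (SE) and -0.64 ± 0.09 over both diets, and on each diet the Het and WT arrays did not overlap on either probe, although the adjusted p over both diets was 0.935 and 0.355 (limma, Benjamini-Hochberg). Both probes were also called lower on the high-fat diet over both genotypes, by -0.30 ± 0.09 and -0.46 ± 0.09 (adjusted p = 0.0368 and 0.00588, limma with Benjamini-Hochberg). All high-fat arrays were scanned on the same day and lay on slides 1 and 2, and all low-fat arrays were scanned on another day and lay on slides 3 and 4. Diet therefore cannot be told apart from scan day and slide in any comparison of diets reported here. A setting with slide as a random block, with an estimated correlation of -0.18, raised the number of all probes called in each comparison of diets. A call gained only under that block is given as a description. The number of arrays limits the precision of every value.

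**Figure D1:**
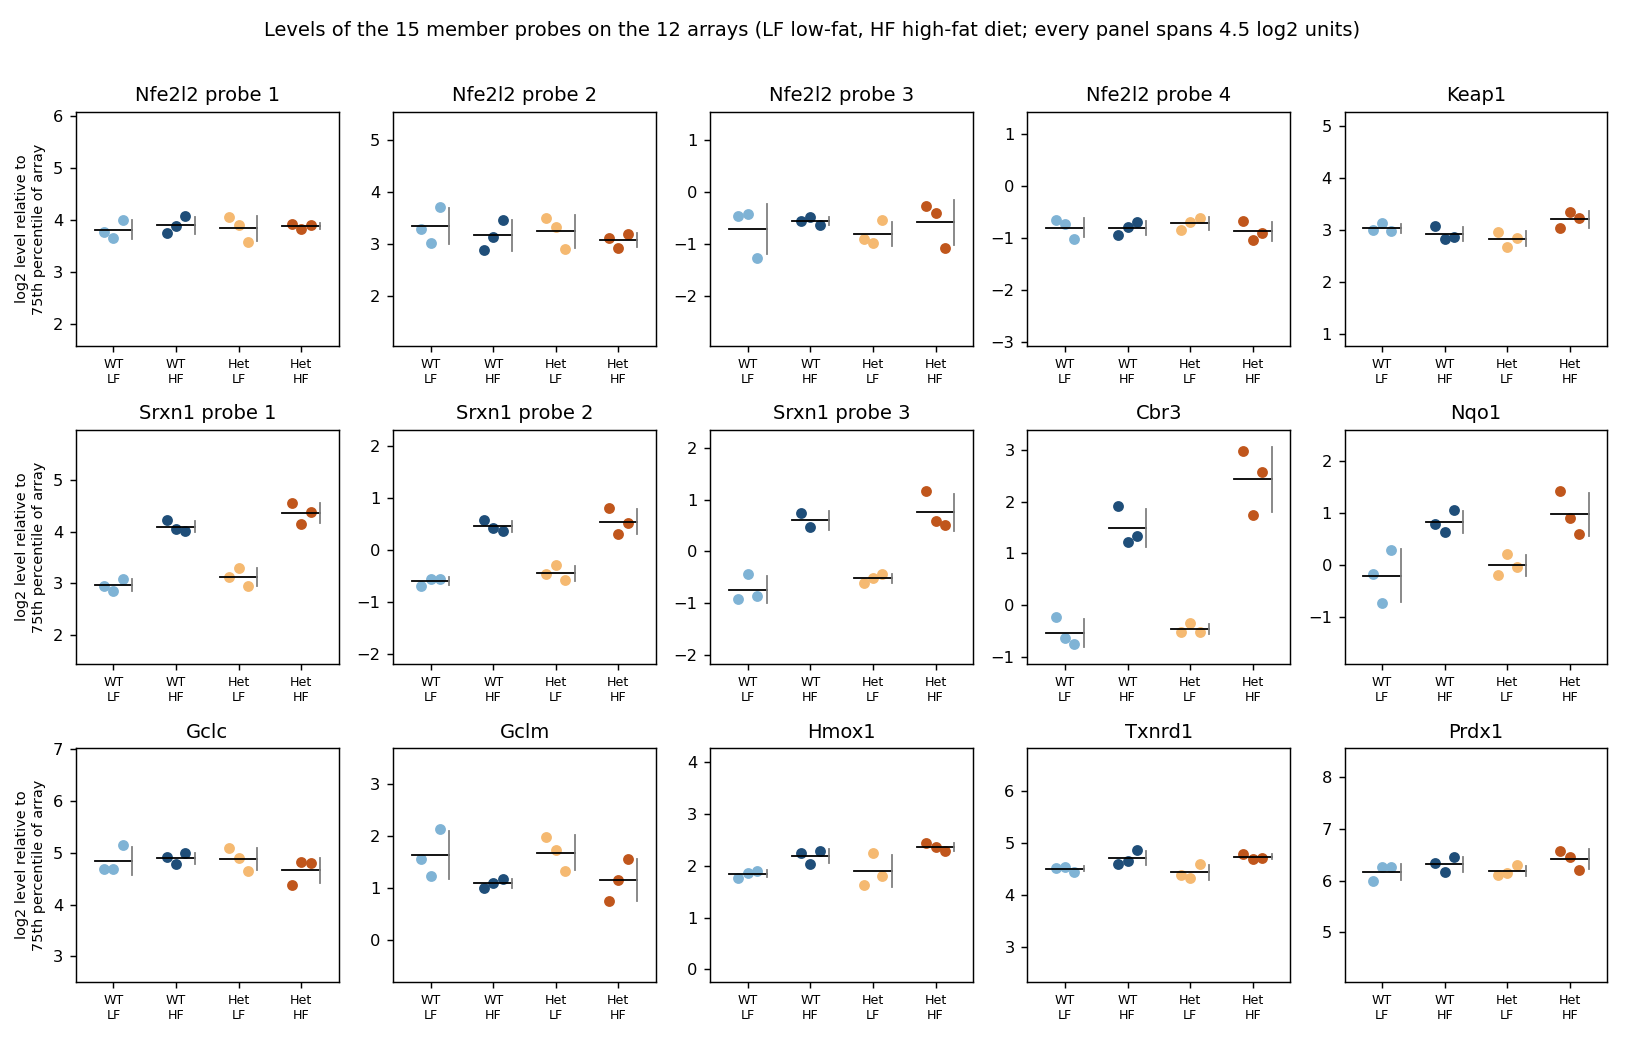
Levels of the 15 probes on the 12 arrays: each point is 1 array, the vertical axis is the log2 level relative to the 75th percentile of the array, black lines are group means and grey bars span 1 SD to either side. LF and HF stand for the low-fat and high-fat diets. The panels of Srxn1, Cbr3 and Nqo1 show the high-fat arrays of both genotypes above all low-fat arrays, and those of Nfe2l2 show groups that overlap.

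No probe of Nfe2l2, the gene of the factor itself, was called in any comparison, and its groups overlapped. Nfe2l2 on its first probe stood at 3.77, 3.65 and 4.01 in WT low-fat livers, 3.74, 3.89 and 4.07 in WT high-fat livers, 4.05, 3.89 and 3.57 in Het low-fat livers and 3.92, 3.82 and 3.90 in Het high-fat livers. The means ran from 3.90 ± 0.16 (SD, n = 3) in WT high-fat livers down to 3.81 ± 0.18 in WT low-fat livers, and the ranges of neighbouring groups in that order overlapped. The diet difference was 0.09 ± 0.15 (SE) in WT and 0.04 ± 0.15 in Het on this probe, with 95% confidence intervals from -0.24 to 0.43 and from -0.29 to 0.38. A doubling lies outside both intervals. The second probe, which reads the same RefSeq transcript, gave -0.18 ± 0.22 and -0.17 ± 0.22. Probes 3 and 4 were designed on separate cDNA clones further upstream on the minus strand and gave 0.16 ± 0.26 and -0.00 ± 0.14 in WT, and 0.23 ± 0.26 and -0.15 ± 0.14 in Het. The lowest adjusted p of the 4 probes over both genotypes was 0.416 (limma, Benjamini-Hochberg).

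Keap1, the inhibitor, stood at 2.99, 3.13 and 2.98 in WT low-fat livers and 3.08, 2.83 and 2.87 in WT high-fat livers. In Het livers it stood at 2.97, 2.67 and 2.85 on the low-fat diet and 3.03, 3.34 and 3.23 on the high-fat diet. In Het the high-fat arrays were all above the low-fat arrays, while in WT the diets overlapped. The diet difference was -0.11 ± 0.13 in WT (adjusted p = 0.641, limma with Benjamini-Hochberg) and 0.37 ± 0.13 in Het (adjusted p = 0.0779), so neither passed. With the normexp background the difference in Het did pass, at 0.44 with an adjusted p of 0.0415 (limma). It also passed with slide as a random block (0.0231), a setting that raised the calls over all probes. The difference between these differences was 0.48 ± 0.19, with an unadjusted p of 0.0256 and an adjusted p of 0.887 in limma, and was not called.

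Of the 15 probes, 5 were called with diet in WT, all higher on the high-fat diet: those of Srxn1, Cbr3 and Nqo1. The same 5 probes were called with diet in Het, also all higher. In WT 5.69% of all probes tested were called, 2.42% as higher and 3.26% as lower, and in Het 14.8% were called, 6.78% as higher and 7.99% as lower. Over both genotypes 8 of the 15 probes were called, 7 higher and 1 lower, against 29.4% of all probes, 12.3% higher and 17.1% lower. Probes of the same gene are counted apart here. By gene, on the brightest probe, 3 of 10 were called higher in WT and 3 in Het. Over both genotypes 5 genes were called higher and 1 lower. The members were chosen with earlier results of these data known. The share of higher calls among all probes called depends on the scaling: in WT it was 42.6%, against 75.05% under median scaling, 58.6% under quantile normalization and 57.2% once array trends on base composition and brightness were removed. Over both genotypes it was 41.9%, and 59.0% under median scaling. Median scaling moved the median difference of all probes from -0.05 to 0.06 in WT, and from 0.03 to -0.08 between the genotypes on the high-fat diet; the 5 called probes lie at or above 0.98, far from either value. In WT the diet groups of 7 probes did not overlap with high-fat higher, and those of 1 probe, Gclm, with high-fat lower, against 11.5% and 18.5% of all probes. In Het these numbers were 8 and 0, against 16.6% and 19.2%, and with the genotypes pooled they were 6 and 0, against 5.38% and 7.33%. The differences of 11 of the 15 probes were positive in WT, in Het and over both genotypes, against 44.2%, 49.0% and 46.2% of all probes. The 2 diet comparisons within a genotype set different arrays against each other. They are not independent, since they share the estimate of spread from all 4 groups and the same 2 scan days.

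Srxn1, whose product sulfiredoxin restores overoxidised peroxiredoxins, was 2.18-fold higher on the high-fat diet in WT and 2.34-fold higher in Het on its brightest probe. That probe stood at 2.96, 2.85 and 3.09 in WT low-fat livers and at 4.22, 4.04 and 4.02 in WT high-fat livers. In Het it stood at 3.13, 3.30 and 2.96 on the low-fat diet and at 4.55, 4.15 and 4.38 on the high-fat diet. Each high-fat array was above each low-fat array of either genotype. The log2 difference was 1.13 ± 0.14 in WT (adjusted p = 0.0066, limma with Benjamini-Hochberg) and 1.23 ± 0.14 in Het (adjusted p = 0.00281). The other probes read a separate stretch of the gene, with which the first does not overlap, and gave 1.06 ± 0.14 and 1.34 ± 0.22 in WT and 0.99 ± 0.14 and 1.27 ± 0.20 in Het. All 3 probes were called in each diet comparison. The third probe lost its call in WT without WT high-fat array 1 (adjusted p = 0.071) or without WT low-fat array 1 (adjusted p = 0.0554), where its difference was 1.21 and 1.25, or without the filter on dim signals (0.0512), and the other probes kept theirs whichever array was left out.

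Cbr3 encodes an NADPH-dependent carbonyl reductase and had the largest difference of the 15 probes in each diet comparison. It stood at -0.22, -0.62 and -0.75 in WT low-fat livers and at 1.91, 1.23 and 1.33 in WT high-fat livers. In Het livers it stood at -0.51, -0.34 and -0.51 on the low-fat diet and at 2.98, 1.74 and 2.56 on the high-fat diet. The 2 low-fat groups overlapped, and every high-fat array was above every low-fat array. The diet difference was 2.02 ± 0.29, or 4.06-fold, in WT (adjusted p = 0.00984, limma with Benjamini-Hochberg) and 2.88 ± 0.29, or 7.38-fold, in Het (adjusted p = 0.0021). Both calls were kept whichever of the 12 arrays was left out, with differences from 1.81 to 2.18 in WT and from 2.61 to 3.23 in Het.

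Nqo1, the quinone reductase that is often used as a marker of NRF2 activity, was about doubled on the high-fat diet. It stood at -0.18, -0.73 and 0.28 in WT low-fat livers and at 0.78, 0.63 and 1.05 in WT high-fat livers. In Het the levels were -0.19, 0.20 and -0.04 on the low-fat diet and 1.42, 0.90 and 0.60 on the high-fat diet. The diets did not overlap in either genotype, although the WT low-fat arrays spread over 1 unit. The difference was 1.03 ± 0.27 in WT (2.04-fold, adjusted p = 0.0487, limma with Benjamini-Hochberg) and 0.98 ± 0.27 in Het (1.98-fold, adjusted p = 0.0338). The call in WT was lost without any 1 of 9 arrays, namely each WT high-fat array, WT low-fat arrays 1 and 2, Het high-fat array 2 and each Het low-fat array, with adjusted p up to 0.142. The call in Het was lost without any 1 of 5 arrays, namely Het high-fat arrays 1 and 2 and each Het low-fat array, with adjusted p up to 0.129. Over both genotypes the difference was 1.01 ± 0.19 (adjusted p = 0.0039), and this call was kept whichever array was left out. Without the filter on dim signals the calls within WT (adjusted p = 0.107, limma) and Het (0.0799) were lost, as were that in WT when only its 2 groups were fitted (0.0784) and that in Het with the normexp background (0.0529).

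**Figure D2:**
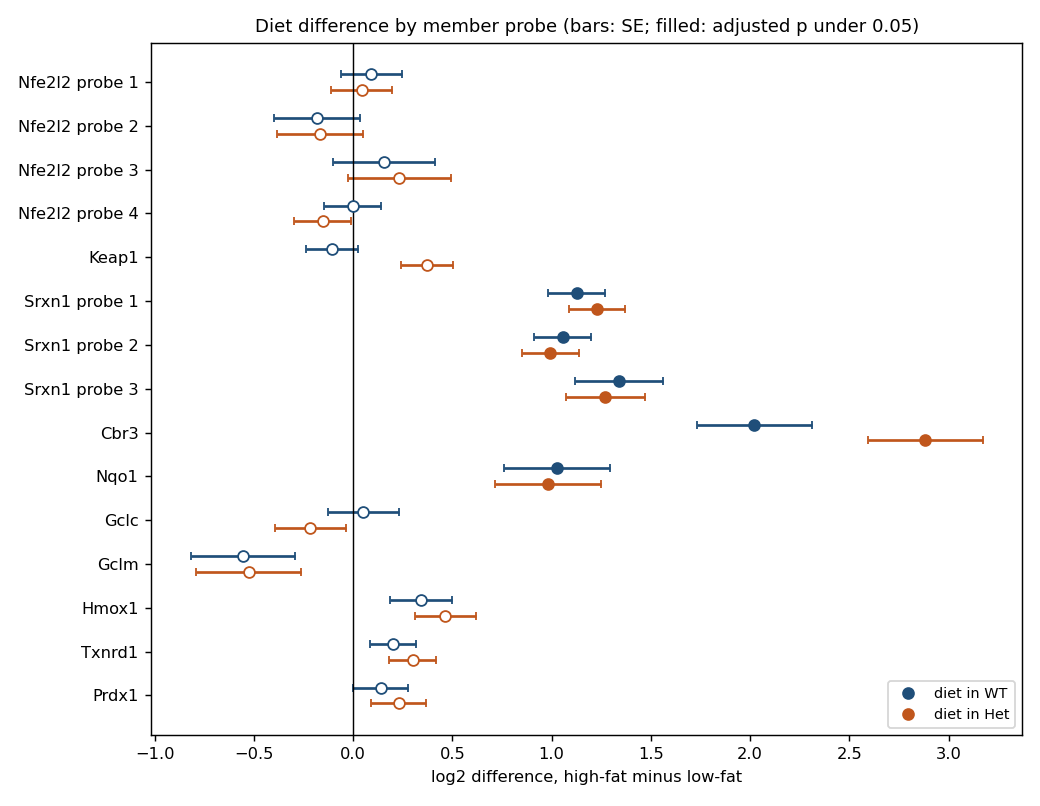
Log2 difference between the high-fat and the low-fat diet for each of the 15 probes, in WT (blue) and in Het (orange), with bars of 1 SE and filled points for an adjusted p under 0.05. The 3 Srxn1 probes, Cbr3 and Nqo1 lie at or above 0.98 in both genotypes, and the points of Nfe2l2, Gclc and Prdx1 are open.

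Hmox1 and Txnrd1 differed less, and in the main setting they were called over both genotypes and not within either. Hmox1, the inducible haem oxygenase, stood at 1.76, 1.87 and 1.90 in WT low-fat livers, 2.24, 2.03 and 2.28 in WT high-fat livers, 1.64, 2.25 and 1.81 in Het low-fat livers and 2.44, 2.36 and 2.28 in Het high-fat livers. Within each genotype the diets did not overlap. The difference over both genotypes was 0.40 ± 0.11, or 1.32-fold (adjusted p = 0.0196, limma with Benjamini-Hochberg), and within WT and Het it was 0.34 ± 0.15 (adjusted p = 0.194) and 0.46 ± 0.15 (adjusted p = 0.0658). It was 0.28 with an adjusted p of 0.0731 once array trends were removed. In Het Hmox1 was called with the normexp background (adjusted p = 0.0379, limma), under quantile normalization (0.0496), and without Het low-fat array 2, where the difference was 0.64 (0.0236). It was also called with slide as a random block (0.0189), which raised the calls over all probes.

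Txnrd1, the cytosolic thioredoxin reductase, stood at 4.52, 4.54 and 4.45 in WT low-fat livers, 4.60, 4.66 and 4.85 in WT high-fat livers, 4.38, 4.33 and 4.60 in Het low-fat livers and 4.79, 4.69 and 4.71 in Het high-fat livers. The diets did not overlap in WT or in Het. The difference over both genotypes was 0.25 ± 0.08, or 1.19-fold (adjusted p = 0.0426, limma with Benjamini-Hochberg). This call was lost without any 1 of 10 arrays, all except WT low-fat array 2 and Het low-fat array 3, with adjusted p up to 0.0999, and also with the normexp background (0.142) or without the filter on dim signals (0.0997). In Het alone Txnrd1 was at 0.30 ± 0.12 (adjusted p = 0.104), and was called under quantile normalization (0.0489) and with slide as a random block (0.0254). Prdx1, a peroxiredoxin that sulfiredoxin can restore, had a difference of 0.18 ± 0.10 over both genotypes (adjusted p = 0.18), and the diets overlapped in both genotypes. Prdx1 was called with array trends removed, at 0.29 (adjusted p = 0.0322, limma), and with slide as a random block, at 0.20 (0.0359). For Txnrd1 and Prdx1 alike, the random block is a setting that raised the calls over all probes.

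The 2 subunits of glutamate-cysteine ligase, the rate-limiting enzyme of glutathione synthesis, did not follow Srxn1, Cbr3 and Nqo1. Gclm, the modifier subunit, was the one member called lower on the high-fat diet, and only over both genotypes. It stood at 1.55, 1.23 and 2.14 in WT low-fat livers and at 1.002, 1.09 and 1.17 in WT high-fat livers. In Het it stood at 1.98, 1.72 and 1.32 on the low-fat diet and at 0.74, 1.15 and 1.55 on the high-fat diet. The diets were apart in WT and overlapped in Het. The difference over both genotypes was -0.54 ± 0.19 (adjusted p = 0.0495, limma with Benjamini-Hochberg), and within WT and Het it was -0.55 ± 0.26 (adjusted p = 0.212) and -0.53 ± 0.26 (adjusted p = 0.193). The call was lost without any 1 of 9 arrays, all except Het high-fat array 3, WT low-fat array 2 and Het low-fat array 3, with adjusted p up to 0.113, under median scaling (0.121) or quantile normalization (0.0529), without the filter on dim signals (0.0984), and once array trends were removed (0.105).

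Gclc, the catalytic subunit, stood at 4.69, 4.68 and 5.15 in WT low-fat livers, 4.91, 4.78 and 4.99 in WT high-fat livers, 5.09, 4.89 and 4.65 in Het low-fat livers and 4.38, 4.81 and 4.79 in Het high-fat livers. All 4 groups overlapped, and the diet difference was 0.05 ± 0.18 in WT and -0.22 ± 0.18 in Het. Within the groups, arrays high in Gclc were also high in Gclm: the deviations from the group means had a Pearson r of 0.90 over the 12 arrays, and of 0.96 with array trends removed. WT low-fat array 3 was the highest in both, 0.31 above its group mean for Gclc and 0.50 for Gclm. Het high-fat array 1 was 0.28 below its group mean for Gclc and 0.41 below it for Gclm. Gclm also moved with the second Nfe2l2 probe within groups, with an r of 0.75, and of 0.69 with trends removed. Nfe2l2 probes 3 and 4 went the opposite way to Gclm, with r of -0.91 and -0.66, and of -0.90 and -0.80 with trends removed, so the probes of Nfe2l2 disagree here. These values are descriptions over arrays that share slides and scan days. The pairs were picked from all pairs of member probes, and no r between other probes was set beside them.

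**Figure D3:**
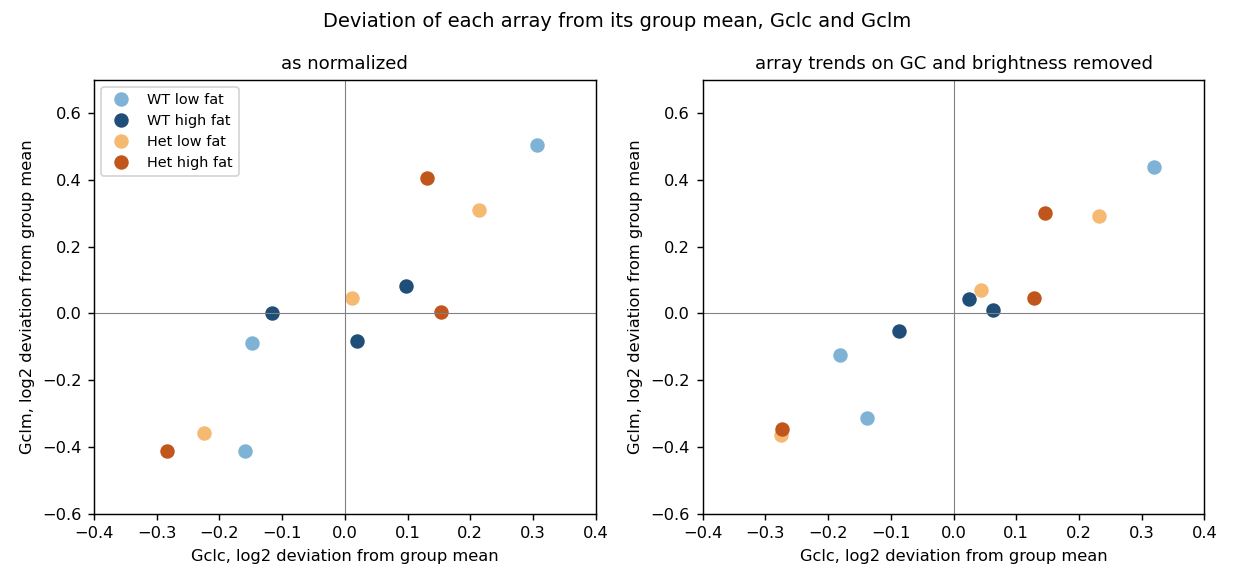
Deviation of each array from the mean of its group, in log2 units, for Gclc (horizontal axis) and Gclm (vertical axis), as normalized on the left and with array trends on base composition and brightness removed on the right. Each point is 1 of the 12 arrays, coloured by group, and the r over them is 0.90 on the left and 0.96 on the right.

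No member was called between the genotypes on either diet, over both diets, or in the interaction of genotype and diet. Nor was any probe of the array, since percent called was 0 in all 4 comparisons with limma. At an unadjusted p under 0.05, high-fat livers gave 2287 of all probes (9.04%), low-fat livers 582 (2.3%), both diets 1300 (5.14%) and the interaction 1341 (5.3%), and 1, 0, 1 and 1 of the 15 probes were among them. The probe on the high-fat diet and over both diets was that of Cbr3, and the probe in the interaction that of Keap1.

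Cbr3 was higher in Het than in WT on the high-fat diet by 0.94 ± 0.29, or 1.92-fold, with an unadjusted p of 0.00778 and an adjusted p of 0.428 (limma, Benjamini-Hochberg). The Het arrays (2.98, 1.74 and 2.56) and the WT arrays (1.91, 1.23 and 1.33) overlapped, since Het high-fat array 2 lay below WT high-fat array 1. On the low-fat diet the genotypes differed by 0.08 ± 0.29. On slide 2, which held 3 Het and 1 WT high-fat array, the difference was 1.10 ± 0.44, and on slide 3, which held 3 WT and 1 Het low-fat array, it was 0.03 ± 0.44. The diet effect was larger in Het by 0.86 ± 0.41, with a 95% confidence interval from -0.04 to 1.76 and an adjusted p of 0.94. That interval includes 0. With an array left out, the genotype difference on the high-fat diet ran from 0.66, without Het high-fat array 1, to 1.28, without Het high-fat array 2.

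For Srxn1 the 95% interval of the genotype difference on the high-fat diet ran from -0.05 to 0.58 on the first probe, around 0.26, and for Nqo1 from -0.43 to 0.74, around 0.15. The interaction was 0.10 ± 0.20 for the first Srxn1 probe and -0.04 ± 0.38 for Nqo1. The Hmox1 levels of the Het high-fat arrays were all at or above those of the WT high-fat arrays, with a difference of 0.18 ± 0.15 (adjusted p = 0.786, limma with Benjamini-Hochberg). Keap1 was lower in all Het than in all WT arrays on the low-fat diet, by -0.20 ± 0.13, and the within-slide value was -0.07 ± 0.20. Of all probes, 9.67% had Het wholly above WT and 5.86% wholly below among high-fat livers, and 2.11% and 2.64% among low-fat livers.

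**Figure D4:**
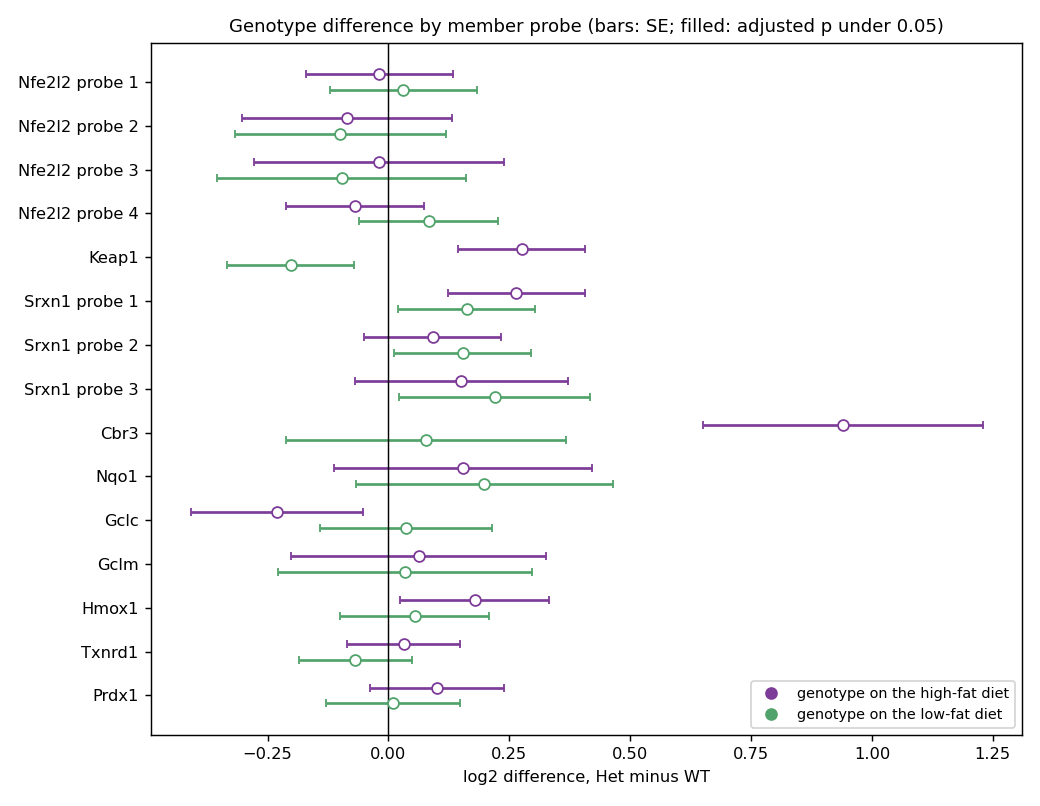
Log2 difference between Het and WT for each of the 15 probes on the high-fat diet (purple) and the low-fat diet (green), with bars of 1 SE. All points are open, since no adjusted p was under 0.05, and the point farthest from 0 is Cbr3 on the high-fat diet at 0.94.

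The wider pathway was read in 8 lists of 99 genes, of which 95 were measured, taking the brightest probe of each gene. Over both genotypes 25 of the 95 rose and 8 fell on the high-fat diet, or 34.7% called against 29.4% of all probes, with a median difference of 0.18 against -0.03. In WT 8 rose and 1 fell (9.47% against 5.69%), and in Het 19 rose and 4 fell (24.2% against 14.8%). The comparison of diets over both genotypes uses the arrays of the comparisons within WT and within Het. Of the 33 calls over both genotypes 25 were kept whichever array was left out, and of the 23 calls in Het 7 were. Of those 23, 9 were kept without the filter on dim signals and 11 with only the groups compared. Some calls over both genotypes were each lost on leaving out any 1 of 7 to 10 arrays. These were the calls of Sqstm1, Gsk3b, Dpp3, Gpx2, Gstm2, Gstm3, Ftl1 and Slc40a1.

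Among 14 regulators and partners of NRF2, 3 rose and 3 fell over both genotypes, or 42.9% called against 29.4% of all probes. The small MAF gene Mafk, whose product pairs with NRF2 on DNA, rose by 0.49 ± 0.07 (adjusted p = 0.00152, limma with Benjamini-Hochberg). Its levels ran from -0.35 to -0.29 in WT low-fat livers and from 0.07 to 0.31 in WT high-fat livers, without overlap. Sqstm1, whose product p62 can displace NRF2 from KEAP1, rose by 0.38 ± 0.12, and Dpp3, another protein that binds KEAP1, by 0.33 ± 0.11. Cul3, the scaffold of the ligase that takes up NRF2, fell by 0.40 ± 0.07 (adjusted p = 0.0034). Gsk3b, a kinase that marks NRF2 for destruction by a second route, and the coactivator Ep300 had differences of -0.39 ± 0.13 and -0.52 ± 0.14. Scaling to the median ended the calls of Gsk3b (adjusted p = 0.139, limma) and Ep300 (0.0583), the normexp background and quantile normalization that of Gsk3b (0.0598 and 0.0514), the missing filter those of Sqstm1 (0.0841), Gsk3b (0.0839) and Dpp3 (0.104), and removing array trends ended those of Gsk3b (0.233), Ep300 (0.0772) and Dpp3 (0.0834). Bach1, a repressor that competes with NRF2, did not pass, at -0.44 ± 0.13 in WT and 0.12 ± 0.13 in Het.

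Of 10 measured genes of glutathione synthesis, recycling and peroxidases, 6 rose and 1 fell over both genotypes, or 70% called against 29.4%. Gss, which makes glutathione from the product of glutamate-cysteine ligase, rose by 0.92 ± 0.13 (adjusted p = 0.00118, limma with Benjamini-Hochberg). The peroxidases Gpx3, Gpx7 and Gpx4, the last of which reduces lipid peroxides in membranes, rose by 1.04 ± 0.26, 0.92 ± 0.20 and 0.74 ± 0.12. Glrx rose by 0.46 ± 0.11 and Gpx2 by 0.51 ± 0.18 (adjusted p without the filter on dim signals 0.0968, limma), while Chac1, which degrades glutathione, fell by 0.83 ± 0.19. Gpx1 and the glutathione reductase gene Gsr did not pass, at 0.26 ± 0.14 and -0.28 ± 0.15. Slc7a11 and Ggt1 were on the list and did not pass the filter on dim signals.

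Of 21 measured glutathione S-transferase genes 7 rose and 0 fell, or 33.3% called, near the 29.4% of all probes. Gsta2 rose by 1.01 ± 0.20 (adjusted p = 0.00463, limma with Benjamini-Hochberg), Gstm4 by 0.78 ± 0.16, Mgst3 by 0.71 ± 0.16 and Gstm5 by 0.67 ± 0.09. Gstm1, Gstm2 and Gstm3 rose by 0.53 ± 0.13, 0.55 ± 0.17 and 0.36 ± 0.12. The Gsta and Gstm genes have near-identical copies, so a probe may read more than its named gene and the split between them is uncertain. Gsta1, Gsta3, Gsta4 and Gstp1 were not called, with differences from -0.07 to 0.29, and Gstm7 stood at -0.56 ± 0.20 (adjusted p = 0.0534). The call of Gstm2 was lost without the filter on dim signals (adjusted p = 0.0673, limma). The call of Gstm3 was lost with the normexp background (adjusted p = 0.0883, limma), under quantile normalization (0.157), without the filter on dim signals (0.0932) and with array trends removed (0.0968).

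Over both genotypes the thioredoxin, peroxiredoxin and sestrin list had 0 of 15 genes higher and 1 lower, or 6.67% called against 29.4% of all probes. The members Srxn1 and Txnrd1, both called higher, and Prdx1 were not on this list. Gclc and Gclm were likewise not on the glutathione list, so the counts of these lists depend on that split. The listed gene that was called was Txnip, the inhibitor of thioredoxin, at -0.58 ± 0.13 (adjusted p = 0.0096, limma with Benjamini-Hochberg). With array trends removed its adjusted p was 0.0506. Prdx3 and Prdx5, the mitochondrial peroxiredoxins, were at 0.28 ± 0.11 and 0.45 ± 0.17 without passing. At an unadjusted p under 0.05 (limma) there were 4 of the 15 genes, for which no share over all probes is given. That share can be no lower than the 29.4% of all probes called at the adjusted p, so the 4 genes are no excess. The difference between the lists was not tested.

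NADPH feeds the reductases of this pathway, and 6 genes were listed for its supply, although Tkt and Taldo1 encode enzymes that make no NADPH themselves. Of the 6, 33.3% were called, near the 29.4% of all probes. Pgd and Tkt of the pentose phosphate route rose by 0.89 ± 0.15 (adjusted p = 0.00238, limma with Benjamini-Hochberg) and 0.72 ± 0.11. G6pdx, the first enzyme of that route, was at -0.10 ± 0.30, and the malic enzyme gene Me1 at 0.59 ± 0.22 without passing. Of 18 genes of quinone, carbonyl and aldehyde enzymes and efflux pumps 6 rose and 0 fell, or 33.3% called, again near the 29.4% of all probes. These were the aldo-keto reductase Akr1b7 (0.94 ± 0.17), Ugdh (0.73 ± 0.11), the efflux pump Abcc3 (0.70 ± 0.14), the epoxide hydrolase Ephx1 (0.69 ± 0.12), Ptgr1 (0.67 ± 0.12) and Aox1 (0.49 ± 0.12). Cbr1, the closest relative of Cbr3 on the list, did not pass, at 0.46 ± 0.27.

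Among 7 genes of haem and iron, 1 rose and 2 fell over both genotypes, or 42.9% called against 29.4% of all probes. The ferritin light chain gene Ftl1 rose by 0.38 ± 0.12 (adjusted p = 0.0409, limma with Benjamini-Hochberg), and the haem synthesis gene Fech and the iron exporter gene Slc40a1 fell, at -0.32 ± 0.08 and -0.34 ± 0.11. The call of Fech was lost with array trends removed, at -0.06 (adjusted p = 0.641, limma), and under median scaling (0.0826). That of Slc40a1 was lost with array trends removed, at -0.17 (adjusted p = 0.262, limma), under median scaling (0.111) or quantile normalization (0.0532) and without the filter on dim signals (0.0901). That of Ftl1 was lost with the normexp background (0.0533) and without the filter (0.0875). Catalase, Cat, was at -0.38 ± 0.09 (adjusted p = 0.013), and at -0.18 with an adjusted p of 0.153 after trends were removed. The superoxide dismutase genes Sod1, Sod2 and Sod3 were at 0.25, 0.20 and 0.32 and were not called. With Cat they form a list of 4 genes, of which 25% were called, below the 29.4% of all probes. In WT alone the called genes of the 8 lists were Mafk, Gss, Gpx4, Gstm5, Pgd, Tkt, Ugdh and Ptgr1, which rose, and Txnip, which fell. None of these 9 calls was kept whichever array was left out: each was lost on leaving out any 1 of 5 to 10 arrays, and the highest adjusted p (limma) was 0.147, for Gpx4. Of the 9 calls, 0 were kept without the filter on dim signals, 1 with only the groups compared and 2 with a replicate block.

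**Figure D5:**
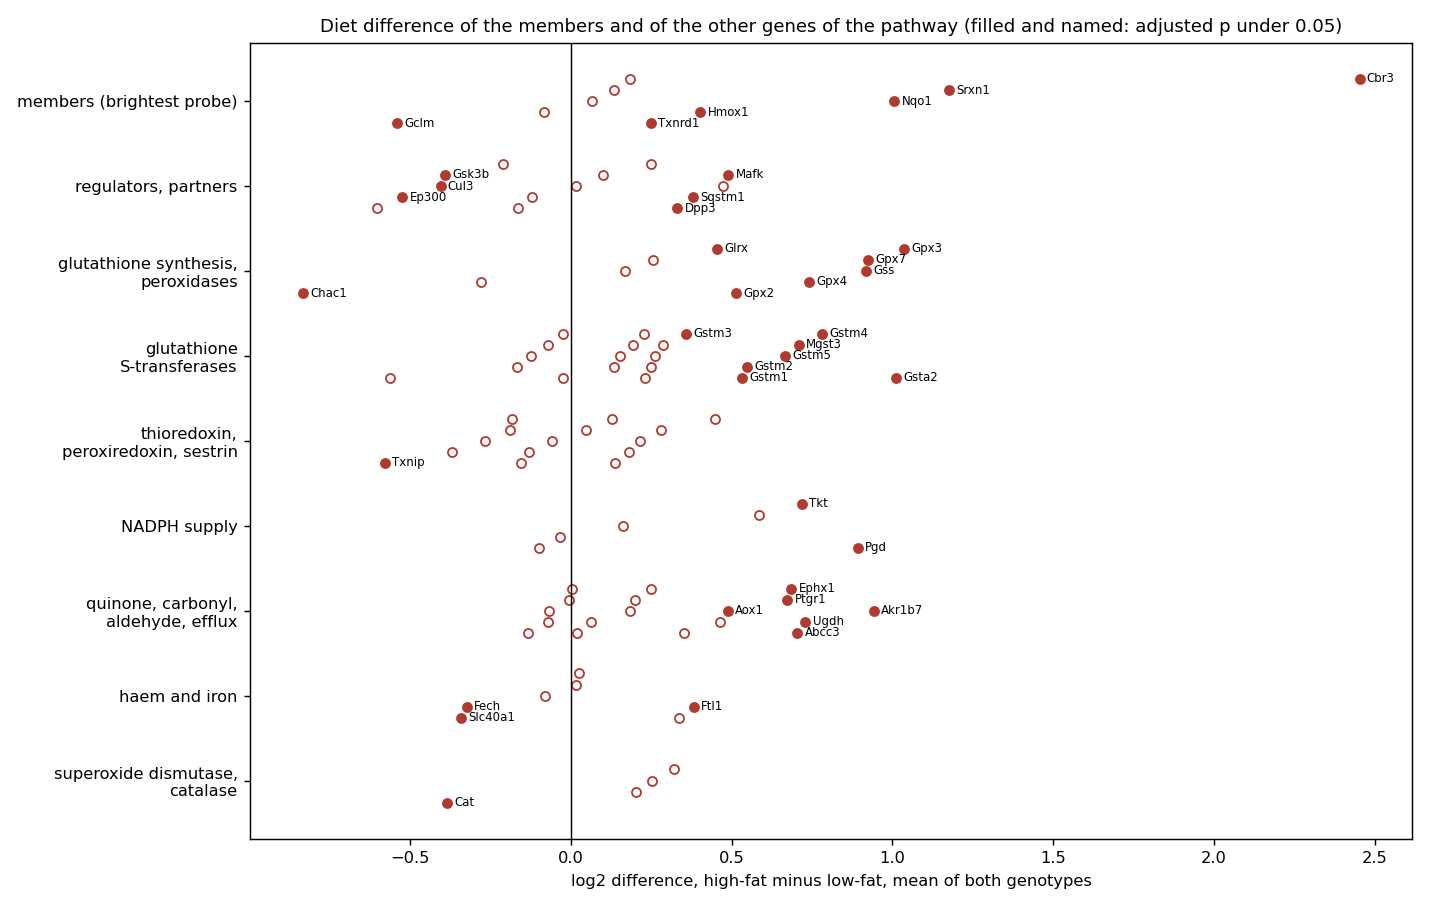
Log2 difference between the diets over both genotypes for the 10 members on their brightest probe and for 95 further genes in 8 lists, 1 row per list. Filled and named points had an adjusted p under 0.05, and Cbr3, at 2.45, lies farthest to the right, followed by Srxn1 at 1.18.

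Other markers moved with diet beside Srxn1, Cbr3 and Nqo1, and their part in these results was not tested. Summed levels of a list are given in units of the array's 75th percentile. Counts are over both genotypes, where 29.4% of all probes were called, 12.3% higher and 17.1% lower. The 6 markers of lipid-associated macrophages all rose over both genotypes, and their sum ran from 9.46 to 10.02 in WT low-fat livers, 16.6 to 18.6 in WT high-fat livers, 9.16 to 10.7 in Het low-fat livers and 12.7 to 25.7 in Het high-fat livers. Of 8 stellate cell and fibroblast markers 6 rose, with sums from 55.0 to 57.7, 69.1 to 74.0, 48.8 to 67.9 and 72.1 to 99.6 in the same order. Of 6 cholangiocyte markers 3 rose, with sums from 7.29 to 9.70, 20.4 to 24.7, 7.68 to 10.1 and 13.5 to 69.2. Macrophage and Kupffer cell markers gave 2 higher and 1 lower of 10, or 30% called, near the 29.4% of all probes. Their sums overlapped between the diets, from 156 to 179, 160 to 185, 111 to 203 and 134 to 202. In whole liver a change in the number of cells of a type and a change in RNA per cell cannot be told apart.

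Hepatocyte markers were measured for 7 of 8 genes and all 7 were well above background on the 12 arrays; 0 rose and 1, Ttr, fell. Their sum ran from 851 to 1169 in WT low-fat livers, 846 to 1095 in WT high-fat livers, 826 to 1027 in Het low-fat livers and 841 to 1243 in Het high-fat livers, so that the diets overlapped. Endothelial markers gave 1 higher and 2 lower of 6, T and NK cell markers 0 and 2 of 6, B cell markers 0 of 3 in either direction, neutrophil markers 1 higher of 3 and red blood cell markers 0 of 2. Endothelial markers had 50% called, and T and NK cell and neutrophil markers 33.3% each, against 29.4% of all probes over both genotypes. Of the adipocyte markers, Adipoq, Plin1, Lep and Retn did not pass the filter on dim signals, and Cfd was called higher.

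Genes whose levels over the 12 arrays were most like those of a member were found by Pearson r and are given as a description, since the parting of the diets alone raises r. For Srxn1 they were Dbndd2 (r = 0.99), Anxa2 and Tpm1, and for Cbr3 they were Sema3b (r = 0.99), Mapt and Acot9. Nqo1 was most like Mpp1 (r = 0.95), Ifngr2 and Ermp1, and Hmox1 most like Gmppb (r = 0.96), Sirpa and Ypel4. Gclm, which moved the other way, was most like Psmd7 (r = 0.99), Faf2 and B4galt3. For Keap1 the closest was Ghdc (r = 0.97) and for Nfe2l2 it was Pgm2 (r = 0.91). Txnrd1 was nearest to Tmem251 (r = 0.95), Prdx1 to Nudt12 (r = 0.97) and Gclc to Dynlt3 (r = 0.88).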

How the data were processed

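Liver RNA of 12 arrays was labelled with Cy3, per the labels. The submitters' processing notes name Agilent Feature Extraction 9.5. The deposited scanner tables hold each spot's intensity, already background-subtracted per the file headers, with flags for outlying spots and for spots well above background. The deposited series table held the same intensity values (largest difference 0). Control and outlier-flagged spots (1344) were left out, log2 intensity was set against the 75th percentile of each array, and spots of a probe were averaged. Of 41174 probes, 25291 were kept: well above background on all arrays of 1 group or more, with values on 2 or more arrays of every group. limma 3.58.1 in R 4.3.3 was fitted to the 4 group means (8 residual and 2.99 prior degrees of freedom) for 7 comparisons, each two-sided, and p was adjusted by Benjamini-Hochberg over the kept probes. The code was tested on simulated data. Alternatives were normexp background, quantile and median scaling, no filter, 1 probe per gene name, fewer groups, replicate and slide blocks, leaving out each array, and, chosen after seeing the data, removing array trends on base composition and brightness. Members and lists were chosen with earlier results of these data known. Named genes are all members, Sirt1, up to 4 called genes of lowest p per list, comparison and direction (the 1 of lowest p where none was called), and the 3 genes most like each member; of these not all are printed, and other list genes were named after their values were seen. Promoter sequences are RefSeq's.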

Additional observations from a re-analysis of the deposited data

How the results depend on the processing

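Cbr3 and the first 2 Srxn1 probes kept direction and call with diet in WT, in Het and over both genotypes under each alternative run on them; the second Srxn1 probe is not among those kept with 1 probe per gene name. With 1 probe per gene name 10 member probes were tested, and the 3 calls they held in WT, and the 3 in Het, were all kept. Of 15 probes, the number called with diet in WT (5) was 3 without a filter and 3 to 5 with each array left out in turn. In Het (5) it was 8 with slide as a random block, whose estimated correlation was -0.18, and 4 to 5 with an array left out. Over both genotypes (8) it was 6 to 8 with an array left out. No called difference turned its sign under any alternative. Uncalled differences did so in 13 of 310 values in WT, 2 of 310 in Het and 1 of 295 over both genotypes. These totals are the values of all 15 probes, called ones included. For genotype, where no member was called, it was 24 of 310 on the high-fat diet and 25 of 310 on the low-fat diet. It was 29 of 295 over both diets and 44 of 295 in the interaction. The shares for diet and for genotype are therefore not on the same base.

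Counts over all probes moved more. With diet in WT (1438) they were 206 without a filter, 796 with only the groups compared, 690 with a replicate block, 5453 with the random block and 261 to 1644 with an array left out. In Het (3736) they were 1567, 2191 and 7805 without a filter, with only the groups compared and with the random block, and 1136 to 4137 with an array left out. Over both genotypes (7435) they were 12804 with the random block and 5377 to 8137 with an array left out. For genotype the count of 0 became 1 on the high-fat diet after quantile normalization and with slide as a fixed block, and 0 to 58 with an array left out, 58 being without WT high-fat array 3. It became 1 on the low-fat diet with the slide block (0 to 1), 1 over both diets with the replicate block and 1 with the slide block (0 to 8), and 0 to 5 for the interaction. The causes were not tested.

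Same-numbered arrays of different groups did not in general deviate together (r from -0.47 to 0.46 over 18 pairs, 3 of them over 0.1). These values show no pairing by number, but with so few arrays a group they cannot exclude one. With the replicate block the calls of Nqo1 in WT (adjusted p = 0.0773, limma) and Het (0.0556), and of Txnrd1 (0.0737) and Gclm (0.069) over both genotypes, were lost, and of the 23 calls of pathway genes in Het 15 were kept.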
